A study of Mus musculus with 36 samples.

Results

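The comparison described here set the forebrain of mice of the line that the labels call Tg, written tg here, with the genotype tg-/- against the forebrain of tg+/+ mice. It rested on 6 of the 36 arrays of the series, namely 3 of tg-/- and 3 of tg+/+ forebrain. The members were all arrays that the labels placed in those groups, and every probe set outside the manufacturer's control sets was considered. Total RNA was hybridised to 1-colour Affymetrix mouse arrays with 45101 probe sets. The labels give each sample as RNA from the forebrain or cerebellum of 1 mouse that was sacrificed, and they call the +/+ animals mutant mice too. They give no strain, age, sex or treatment beyond this, no background on which a line was kept, and no statement of which samples came from littermates or from the same animal. The other lines of the series, stg and lh, also have -/- and +/+ groups of 3 arrays in each tissue, and their 6 +/+ forebrain arrays gave a second reference level for each gene.

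RefSeq lists tg as a synonym of Cacna1a, and the symbol is used for the tottering mouse, although the labels do not spell the name out. Cacna1a encodes the pore-forming subunit of the P/Q-type voltage-gated calcium channel, which carries much of the calcium entry that triggers transmitter release at central synapses. The tottering allele is a recessive missense change in this subunit. Homozygous mice have ataxia, absence seizures with spike-wave discharges over the cortex and thalamus, and attacks of abnormal movement that arise from the cerebellum. Calcium entry and synaptic activity also switch on a set of rapid activity-regulated genes in neurons, among them Fos, Egr1 and Arc, whose mRNA levels are widely read as a trace of recent firing.

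All values are the authors' linear signals, and differences are log2 of the signal plus a constant of 2.98, tg-/- minus tg+/+, with their standard errors (SE). A probe set passed the test where limma's adjusted p (Benjamini-Hochberg, two-sided) was under 0.05. Replicates are numbered in the order of the records. The forebrain SEs and limma p-values rest on the spread within groups pooled over the 18 forebrain arrays of all lines, not on the tg mice alone. With 3 mice against 3, these p-values say nothing about a strain. In whole forebrain, fewer cells of a type and less RNA per cell cannot be told apart.

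The arrays carried forebrain transcripts. The excitatory marker Slc17a7 lay between 801 and 1087 and the interneuron gene Gad1 between 2296 and 5383 on the 6 arrays. The array of tg+/+ replicate 2 stood apart: its mean correlation with the other forebrain arrays was 0.943, against 0.954 to 0.968 for the other 17, and among the 6 tg arrays it had the lowest Tbr1 (84.1 against 275 to 384), Neurod6 (159 against 390.3 to 494) and Gad1. Of 10 measured cerebellar markers none passed, and 9 lay above 0, with Pcp2 at 43.1, 59.98 and 149 in tg-/- and at 20.6, 17.96 and 15.3 in tg+/+. Their summed signal ran from 3442 to 4090 in tg-/- and from 3195 to 3446 in tg+/+, so the groups met. The higher arrays were tg-/- replicates 2 and 3: the list deviated by -0.04, 0.28 and 0.30 in tg-/-, and its median was 0.01 between the first-listed arrays and 0.44 between the later-listed ones. The pituitary transcript Gh, which reached 3526 on an stg+/+ or lh+/+ array, lay between 3.44 and 44.3 on the tg arrays. The female transcript Xist lay between 13.9 and 29.9 and the Y-linked Eif2s3y between 248 and 407 on the tg arrays, as in males. On the stg+/+ and lh+/+ arrays Xist ran from 27.9 to 2639 and Eif2s3y from 0.22 to 366, so that reference held both sexes. The difference between 3 prime and 5 prime control probe sets did not separate the groups (Actb 0.06, exact permutation p = 0.7; Gapdh -0.05, exact permutation p = 0.8, two-sided, n = 3 and 3), although the smallest p this design allows is 0.1.

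None of the probe sets of the mutated gene given here passed, and their differences disagreed in sign. The brightest Cacna1a probe set read 157, 99.8 and 149 in tg-/- and 142, 115 and 97.4 in tg+/+. The groups overlapped, and the difference was 0.18 (SE 0.24, adjusted p = 0.97). Another differed by -0.57 (SE 0.23, adjusted p = 0.76) and a further one by 0.32 (SE 0.28, adjusted p = 0.96). A missense change need not alter the mRNA level, so these values do not check the labels. Among the 19 measured subunits of voltage-gated calcium channels none passed, 10 lay above 0 and 9 below, and their median difference was 0.00.

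Across the whole array the forebrain difference was small in number of genes. Of 27022 probe sets tested, 51 passed (0.189%), 32 higher and 19 lower in tg-/-, and 1536 had an unadjusted p under 0.05. The 51 had a median size of 1.60 on the log2 scale, 44 of them changed by more than 1, and on all 51 the tg-/- and tg+/+ arrays did not overlap. By comparison, 5.06% of all tested probe sets had every tg-/- array below every tg+/+ array and 4.64% had every one above. Of the 51, 38 carried 1 gene symbol and belonged to 34 genes, 22 higher and 12 lower. The count rested on few arrays: it fell to 13 without tg-/- replicate 3, of which 13 were among the 51, and to 17, 24 and 29 without tg-/- replicate 2, tg-/- replicate 1 and tg+/+ replicate 2.

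**Figure D1:**
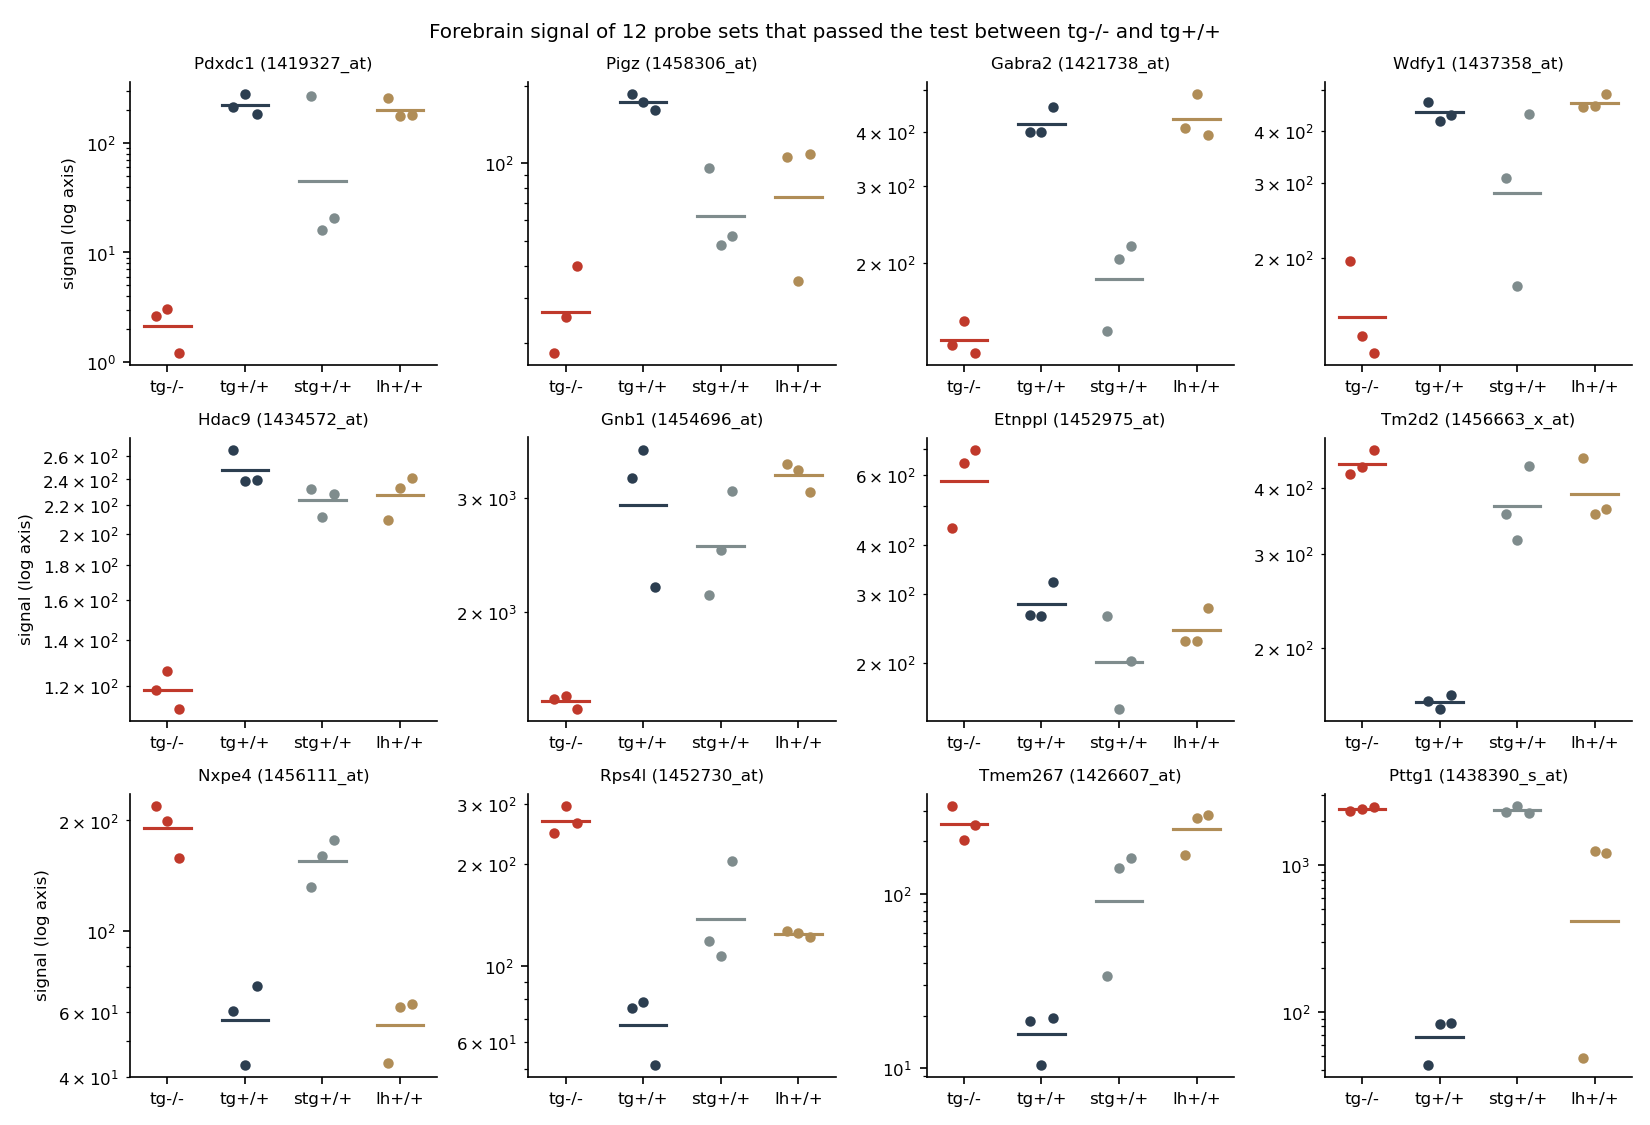
Signal of 12 probe sets in forebrain on a log axis, 1 point per array, for tg-/-, tg+/+, stg+/+ and lh+/+; the line is the geometric mean of the 3 arrays. Every tg-/- array lay outside the range of the tg+/+ arrays, while the stg+/+ and lh+/+ arrays lay near tg-/- for some genes (Tm2d2), near tg+/+ for others (Hdac9) and between or on both sides for the rest (Pttg1).

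The clearest loss in a neurotransmitter receptor was in Gabra2, which encodes an alpha subunit of the GABA-A receptor, the chloride channel of fast inhibition. All 3 of its probe sets fell. One of them read 129, 147 and 124 in tg-/- and 400.5, 399.6 and 457 in tg+/+, which was 133.5 ± 11.99 against 419 ± 32.9 (SD, n = 3 each). The difference was -1.63 (SE 0.29, adjusted p = 0.020), a 3.09-fold lower level. The other 2 differed by -1.47 (SE 0.26, adjusted p = 0.020) and -1.27 (SE 0.26, adjusted p = 0.046). Of the 15 measured genes of GABA receptors, synthesis and transport, Gabra2 alone passed, and the median of the list was 0.03. The next in size were Gabrg3 at 0.26 and the GABA-synthesising enzyme Gad1 at 0.25, neither of which passed.

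Gnb1, a beta subunit of heterotrimeric G proteins, read 1469.6, 1488 and 1422 in tg-/- and 3216, 3552 and 2191 in tg+/+ (-1.002, SE 0.17, adjusted p = 0.017). Its other tested probe set had the larger difference of -1.62 and did not pass. Hdac9, a histone deacetylase that works with MEF2 factors, read 118, 126 and 111 in tg-/- and 265, 239 and 239 in tg+/+ (-1.04, SE 0.12, adjusted p = 7.2e-04). Its SDs of 7.48 and 14.7 were small beside the gap between the means of 119 and 248. The phosphatase gene Ptp4a2 fell on 1 probe set by 1.34 (SE 0.18, adjusted p = 0.0018), whereas its 3 other probe sets lay between 0.07 and 0.32.

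Wdfy1, whose protein binds a phosphoinositide on endosomes, fell on 1 probe set by 1.59 (SE 0.23, adjusted p = 0.0045) and on another by 1.49 (SE 0.23, adjusted p = 0.0081). Its 2 other probe sets, at -0.985 and -1.0002, pointed the same way. Zdhhc18, a palmitoyltransferase, fell by 1.03, with its other probe set at -0.01. Pigz, which adds mannose to GPI anchors, fell by 2.57, with its other 2 between -0.43 and -0.07. The mitochondrial carrier-like gene Sfxn4 fell by 0.91, the integrin adaptor Itgb1bp1 by 0.61 and the non-coding C130071C03Rik by 1.68. The other C130071C03Rik probe set lay at -0.13. The ubiquitin-binding gene Cuedc1 fell by 1.97 on 1 of 3 probe sets, and the other 2 lay at -0.01 and 0.41. The largest single difference was 1 Pdxdc1 probe set, at 2.62, 3.07 and 1.22 in tg-/- and 214, 278 and 183 in tg+/+ (-5.43, SE 1.05, adjusted p = 0.033). The tg-/- signals lay around the 10th percentile of all values, so the size of that fold is set by the floor. The other 3 Pdxdc1 probe sets lay the other way, between 0.63 and 1.01, so the gene as a whole cannot be given a direction.

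The largest gain was in Pttg1, the securin gene that holds back sister chromatid separation. Its brightest probe set read 2338, 2403 and 2499 in tg-/- and 43.9, 83.5 and 84.1 in tg+/+ (5.10, SE 0.94, adjusted p = 0.025). A second probe set rose by 4.22 (SE 0.79, adjusted p = 0.026), and the remaining one lay at 1.71 without passing. Ssbp2, a cofactor of LIM-domain transcription complexes, rose by 4.28 on 1 probe set, from 5.44, 2.27 and 9.29 in tg+/+ to 193, 157 and 125 in tg-/-. These tg+/+ signals lay near the 10th percentile of all values (2.98), so the size of the rise is set by the floor, and its 3 other probe sets lay between -0.32 and 0.08. Tmem267, a membrane protein gene, rose by 3.77, with 317, 204 and 249 in tg-/- against 18.7, 10.5 and 19.5 in tg+/+.

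The peptide transporter Slc15a2 rose on 1 probe set by 2.67 (SE 0.53, adjusted p = 0.040), from 36.5, 19.3 and 36.1 to 193, 200.004 and 218, but its 2 other probe sets lay at -0.62 and 0.91. Rcn2, which binds calcium in the secretory pathway, rose from 6.67, 1.98 and 16.1 to 67.0, 52.0 and 81.2 on 1 probe set. Those tg+/+ signals also lay near the floor, and its other probe set lay at 0.12. The lipid kinase Dgke rose by 1.58, with its other 2 probe sets at -0.48 and 0.62, and the lysosomal sulfatase Arsk by 1.56, with its other at 0.60. Etnppl, an enzyme of phosphoethanolamine breakdown found in astrocytes, rose by 1.04 (SE 0.19, adjusted p = 0.021), with 441, 644 and 694 in tg-/- and 265, 263 and 321 in tg+/+. The 2 higher tg-/- arrays were those with the most Pcp2 (59.98 and 149), and Etnppl was also higher in cerebellum, at 600.0 ± 74.6 (SD, n = 3) in tg+/+; whether cerebellar RNA has a part in its forebrain difference was not tested. Gosr1, a Golgi SNARE, rose by 0.85 and the mitochondrial enzyme Mmut by 0.63, but their other probe sets lay at -0.28 and -0.23. Vps52, of a Golgi tethering complex, rose by 1.03, with its other probe set at 0.73.

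Msi2, an RNA-binding protein of the Musashi family, rose on 1 probe set by 2.14 (SE 0.35, adjusted p = 0.013), although 6 of its 7 other probe sets stayed within 0.3 of 0. Taf15, an RNA-binding protein of the FET family, rose by 1.49, with its other probe set at 0.21, and Rps4l, a ribosomal protein gene copy, by 1.94, with 247, 295 and 264 in tg-/- and 75.7, 78.5 and 51.5 in tg+/+. Near-identical copies of ribosomal protein genes can share probes, so the Rps4l value is uncertain. Kirrel3, a synaptic adhesion molecule, rose by 0.92, with its other probe set at 0.23, and the podosome adaptor Sh3pxd2b by 1.82, with its other at 0.13. Tm2d2 rose by 1.47 on 1 probe set, while its 7 others lay between -0.15 and 0.45, 6 of them within 0.3 of 0. The remaining gains with a symbol were Nxpe4 (1.69), Pou5f2 (1.92), Gm13238 (1.53), Zfp593 (1.60, its other probe set at -0.33) and Ttc9 (1.10, its other at 0.03).

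Probe sets of 1 gene often disagreed. Of the 34 genes, 24 had another tested probe set, and of those 47 other probe sets 25 had the sign of the call while 27 lay within 0.3 of 0. Gabra2, Wdfy1, Gnb1 and Pttg1 were the genes with differences beyond 0.9 in 1 direction on every tested probe set where more than 1 was tested. A probe set reads a short stretch of the transcript, and a base difference under it or another transcript end changes its signal without a change in the level of the whole gene. No sequence of these animals was used here to tell these apart.

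The level in the other +/+ forebrains placed the tg groups in relation to mice of other lines. Set against the mean of stg+/+ and lh+/+, tg-/- differed for 37 of all probe sets (0.137%) and tg+/+ for 36 (0.133%). Both counts came to 17 without the 3 stg+/+ and lh+/+ arrays that held pituitary transcripts. Among the 51 forebrain calls, 12 had tg-/- apart from the other controls, 10 had tg+/+ apart, none had both, and 29 had neither. These comparisons share the tg arrays with the main one and are set beside it as values. The other controls held both sexes, unlike the tg arrays, and the part of sex in these counts was not tested. On 5 of the 51 all 6 other controls lay nearer tg+/+, and on 7 all lay nearer tg-/-; on the other 39 the 6 arrays were split.

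Hdac9, Gnb1 and Etnppl were the named genes with all 6 other controls on the side of tg+/+. Hdac9 read 209.8 to 241 on those arrays, above every tg-/- value, and tg-/- was lower than their mean by 0.91 (SE 0.11, adjusted p = 4.3e-04). Gnb1 read 2123 to 3385 there, and tg-/- was 0.97 lower (SE 0.15, adjusted p = 0.0083). Etnppl read 153 to 275 there, and tg-/- was 1.38 higher (SE 0.16, adjusted p = 4.3e-04).

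Other genes had the other controls on the side of tg-/-. The called Tm2d2 probe set read 159, 154 and 163 in tg+/+ but 424 to 470.1 in tg-/- and 319 to 454 in the other controls, and tg+/+ was 1.24 below those controls (SE 0.18, adjusted p = 0.0047). Slc15a2, Sh3pxd2b, Pou5f2 and Gm13238 also had all 6 other controls nearer tg-/-. On Slc15a2 the other controls read 93.4 to 259, on Sh3pxd2b 29.4 to 51.8 against 7.14 to 15.97 in tg+/+.

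On further genes the other lines were split. The brightest Pttg1 probe set read 2265 to 2519 in stg+/+, within or near the tg-/- range, but 48.5 on 1 lh+/+ array and 1205 and 1257 on the other 2. The lh-/- forebrain arrays showed the same spread, with 92.5, 1270.3 and 1287. In stg-/- forebrain 1 array read 1192 beside 2199 and 2392. Over all 36 arrays the signals of this probe set lay either at 92.5 and below or at 1061 and above. In the tg cerebellum it read 2236, 2156 and 2234 in -/- and 44.5, 61.9 and 31.2 in +/+. The called Pdxdc1 probe set likewise read 267 on 1 stg+/+ array and 16.1 and 20.8 on the other 2. The first Gabra2 probe set was low in stg+/+ forebrain (139, 205 and 219), although those mice carried the +/+ genotype, and high in lh+/+ (409, 489 and 394). For these genes arrays of the +/+ genotype took both the tg-/- and the tg+/+ level, and line, animal and genotype cannot be told apart for them from 3 mice a group.

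**Figure D2:**
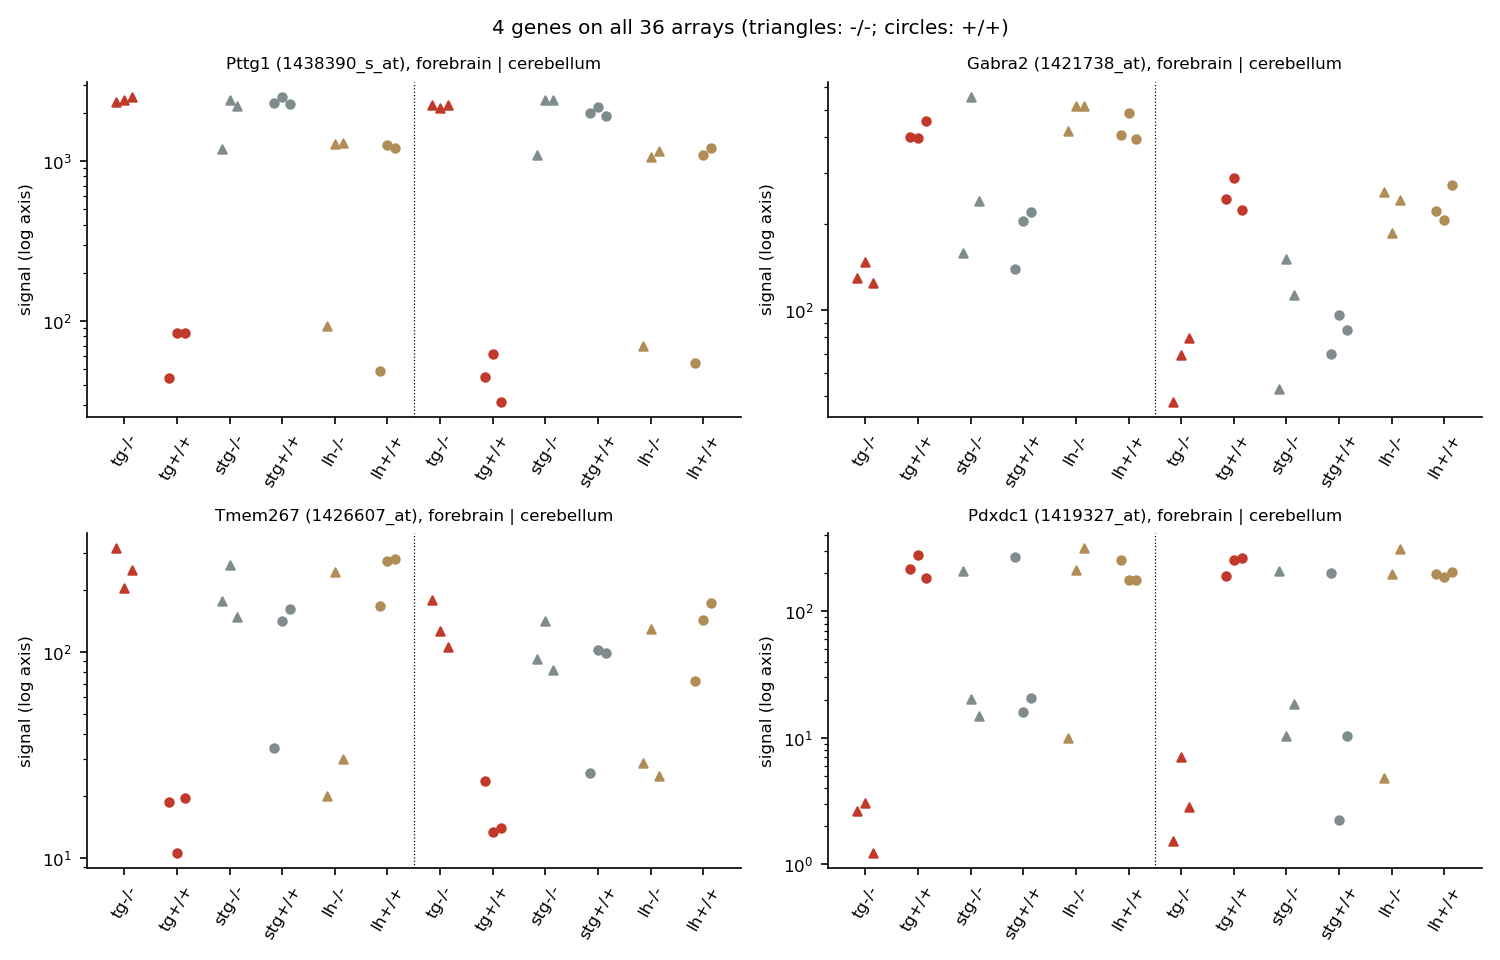
Signal of Pttg1, Gabra2, Tmem267 and Pdxdc1 on all 36 arrays (log axis), 3 points per group, with forebrain left and cerebellum right of the dotted line; triangles are -/-, circles +/+, and colours mark the lines tg, stg and lh. The tg-/- and tg+/+ arrays were apart in both tissues, and arrays of 1 genotype in stg or lh took both high and low levels, such as 16.1 and 267 for Pdxdc1 in stg+/+ forebrain.

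Chromosome 11 held 7 of the 34 called genes (Sh3pxd2b, Pttg1, Gosr1, Taf15, Cuedc1, Msi2 and Dgke), which is 0.697% of its 1005 tested genes. Chromosome 13 held 5 of 466 (1.07%) and chromosome 16 held 3 of 407 (0.737%). The count was 5 of 759 (0.659%) for chromosome 4 and 3 of 460 (0.652%) for chromosome 12. Over all chromosomes it was 34 of the 12574 tested genes with 1 symbol. Of the 34, 20 had another called gene within 10 Mb, and whether this placement differs from that of all tested genes was not tested. Cacna1a lies on chromosome 8, where Tm2d2 was the only called gene. Within 10 Mb of Cacna1a, 207 probe sets of 113 genes were tested and none passed in limma, 13 having an unadjusted p under 0.05. In that window 8.21% of probe sets had all tg-/- arrays lower, against 5.06% of all, and 1.93% had all higher, against 4.64%.

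The forebrain calls were largely shared with the cerebellum of the same line, which was read on 6 other arrays. In cerebellum 155 of 27022 probe sets passed (0.574%). Of the 51 forebrain calls 50 were tested there, 48 had the same sign and 37 also passed, which is 72.5% of the forebrain calls and 23.9% of the cerebellum calls. Whether both tissues came from the same mice is not stated in the labels. Gabra2 fell by 1.92 in cerebellum, Pttg1 rose by 5.55, and Itgb1bp1 fell by 1.29 against 0.61 in forebrain. The exceptions in sign were Sh3pxd2b (-0.34, SE 0.57) and Pou5f2 (-0.30, SE 0.66), and Kirrel3 lay at 0.27 (SE 0.27).

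**Figure D3:**
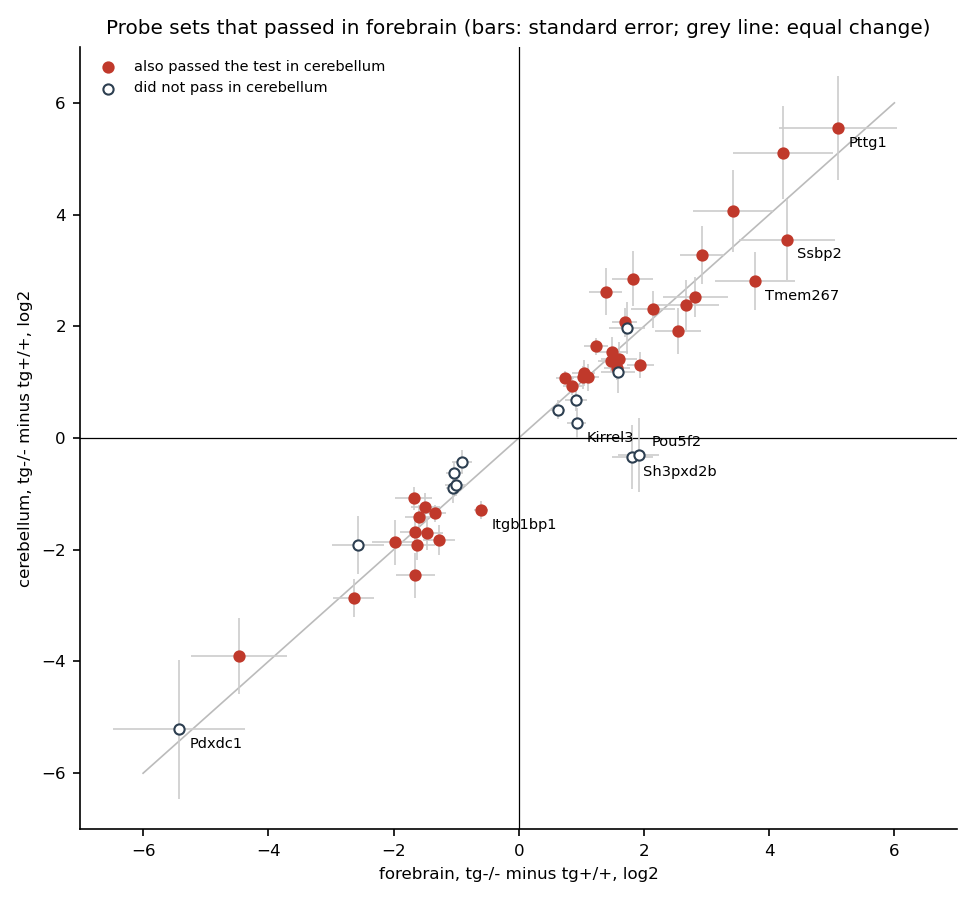
Difference between tg-/- and tg+/+ on the log2 scale in forebrain (x axis) and cerebellum (y axis) for the 50 probe sets that passed in forebrain and were tested in both, with standard errors; the grey line marks equal differences. Of these, 37 (filled) also passed in cerebellum, and 48 lay in the quadrants of equal sign.

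The test of the difference between tissues passed for 7 of all probe sets (0.0259%), none of them a forebrain call. Th, tyrosine hydroxylase, which starts catecholamine synthesis, read 168, 130 and 145 in tg-/- forebrain and 153, 143 and 136 in tg+/+. Its forebrain difference was 0.03 (SE 0.18), against 4.15 (SE 0.20) in cerebellum, and the tissues differed by 4.11 (SE 0.27, adjusted p = 2.0e-11). Tac1, from which substance P is cut, differed by 0.16 (SE 0.12) in forebrain and by 2.40 (SE 0.28) in cerebellum. The other tissue differences were in 2 probe sets of the thrombin receptor F2r and in Nos1, Stmn1 and Dipk1a. The marked cerebellar gain of Th in this line thus had no counterpart of that size in forebrain.

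The tg forebrain effect was also set against the mean effect of the stg and lh mutations. It differed for 16 of all probe sets (0.0592%), of which 14 were forebrain calls. This contrast holds the same tg-/- minus tg+/+ difference, on the same arrays, that selected the calls. The share of calls among the 16 is thus no separate evidence. In the stg and lh forebrain comparisons only 3 and 4 of 27022 probe sets passed. Few calls could thus be shared, and none of the 51 was. The count of 16 was 10, 2 and 3 without tg-/- replicate 1, 2 and 3, 10, 9 and 12 without tg+/+ replicate 1, 2 and 3, and 9 without the 3 arrays with pituitary transcripts. The named ones were Gabra2, Hdac9, Wdfy1 and Zdhhc18 on the lower side and Msi2, Nxpe4, Rps4l, Taf15, Tm2d2, Tmem267 and Ttc9 on the higher side. The 2 probe sets outside the calls were of Cacng2, the gene whose change defines the stargazer mouse.

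Rapid activity-regulated genes were lower in tg-/- forebrain as a list, without any single one passing. Of 41 listed genes 35 were measured, and 33 of the 35 lay below 0. The median difference was -0.36, against 0.00 over all tested probe sets. None passed in limma, and 13 had an unadjusted p under 0.05, all of them lower. On 9 of the 35 (25.7%) every tg-/- array lay below every tg+/+ array, against 5.06% of all tested probe sets, and on none (0%) above, against 4.64%. Over 3 replicates the list's deviation was -0.22, -0.28 and 0.02 in tg-/- and -0.03, 0.37 and 0.39 in tg+/+, so tg-/- replicate 3 and tg+/+ replicate 1 met. The list median was -0.16 between the first-listed arrays of the groups and -0.50 between the later-listed ones, and it ran from -0.24 to -0.52 as each array was left out. It was -0.24 without tg+/+ replicate 2, the array that stood apart, -0.52 without tg+/+ replicate 1, and -0.18 with array weights. These genes also respond to handling and to how animals are killed, which the labels describe no further than sacrifice.

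**Figure D4:**
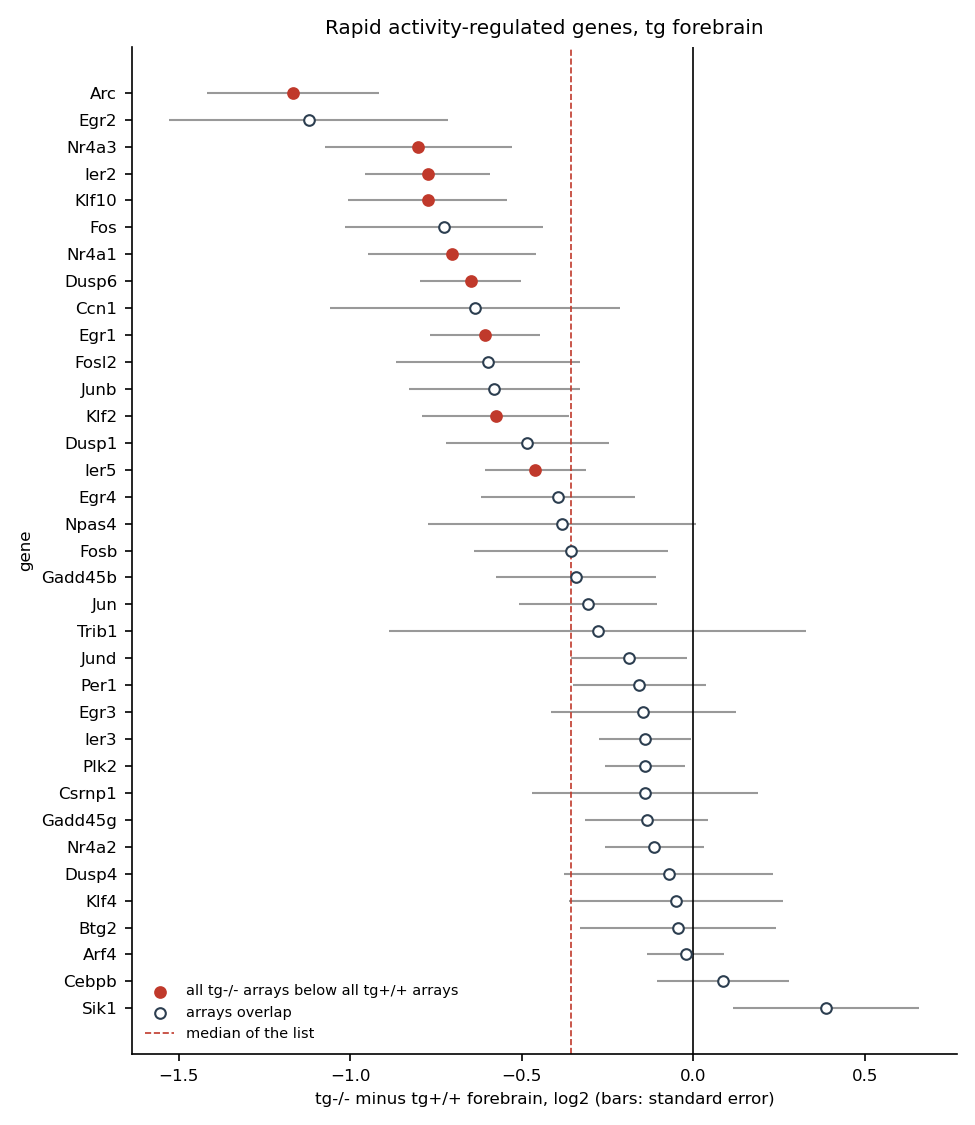
Difference between tg-/- and tg+/+ forebrain (log2) with standard error for the 35 measured rapid activity-regulated genes, ordered by size. Filled points mark the 9 genes on which all tg-/- arrays lay below all tg+/+ arrays; 33 of the 35 points lie left of 0 and the dashed line is the median, -0.36.

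Arc, which encodes a synaptic protein that drives AMPA receptor removal, came nearest to passing. It read 311, 283 and 351 in tg-/- and 493, 876 and 820.4 in tg+/+, with no overlap, and 315 ± 33.8 against 730 ± 207 (SD, n = 3 each). Its difference was -1.17 (SE 0.25, adjusted p = 0.073), and without tg+/+ replicate 1 it was -1.43 and passed (adjusted p = 0.028). The stg+/+ and lh+/+ arrays read 352 to 783. Egr1, a zinc-finger transcription factor, read 1730.0, 1424 and 2045 in tg-/- and 2275, 2898 and 2709.7 in tg+/+ (-0.61, SE 0.16, adjusted p = 0.22).

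Fos, the best known immediate-early transcription factor gene, read 744, 632 and 1105 in tg-/- and 868, 1798 and 1514 in tg+/+. The groups overlapped, and the difference was -0.73 (SE 0.29, adjusted p = 0.75). The nuclear receptor gene Nr4a1 read 569, 494 and 795 in tg-/- and 875, 1045 and 1062 in tg+/+ (-0.70, SE 0.24, adjusted p = 0.59). Junb, a partner of Fos, lay at -0.58, Fosb at -0.36, Egr2 at -1.12, Egr3 at -0.15, Egr4 at -0.39 and the neuron-restricted factor Npas4 at -0.38, none of which passed. Dusp1, a phosphatase that turns off MAP kinases, lay at -0.48.

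Genes of the same list picked after their values were seen were Ier2, Dusp6, Nr4a3, Klf10, Klf2 and Ier5. Dusp6, an ERK phosphatase, read 386, 370.4 and 403 in tg-/- and 530.4, 648 and 653 in tg+/+ (-0.65, SE 0.15, adjusted p = 0.11). It passed only with a block for line and order of records (adjusted p = 0.023). Ier2 read 97.4, 112 and 125 in tg-/- and 153, 205 and 225 in tg+/+ (-0.77, SE 0.18, adjusted p = 0.12). Ier2 was the 1 measured gene of the list that passed in cerebellum, where it fell by 0.78 (SE 0.17, adjusted p = 0.036). Ier2 and Junb lie within 10 Mb of Cacna1a on chromosome 8, and both were counted among the 33. Nr4a3 lay at -0.80, Klf10 at -0.77, Klf2 at -0.58 and Ier5 at -0.46, each with no overlap.

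**Figure D5:**
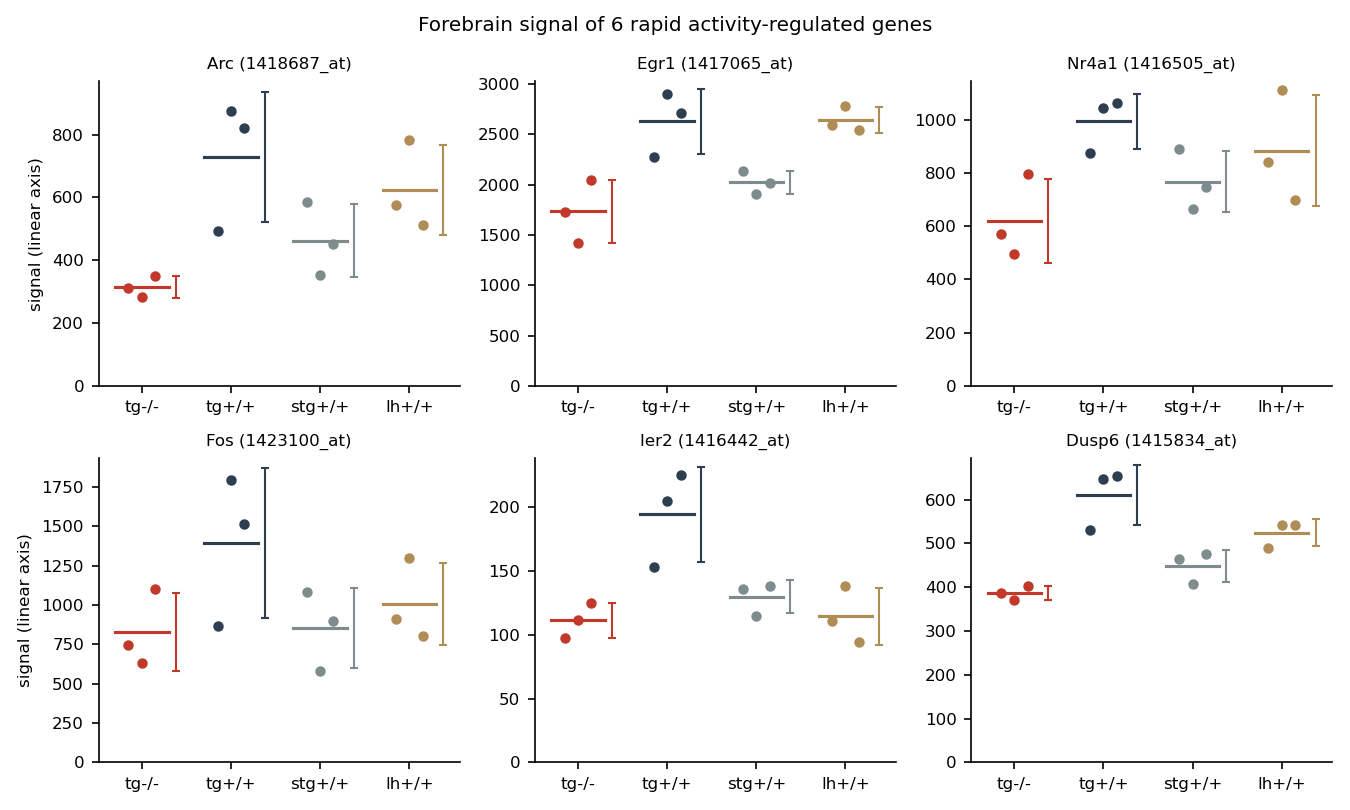
Forebrain signal of Arc, Egr1, Nr4a1, Fos, Ier2 and Dusp6 on a linear axis from 0, 1 point per array, with the mean (line) and SD (bar) of the 3 arrays in tg-/-, tg+/+, stg+/+ and lh+/+. The tg-/- arrays lay below the tg+/+ arrays except for Fos, where 1105 exceeded the lowest tg+/+ value of 868.

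The other +/+ forebrains lay between the tg groups for this list. The median of the 35 genes was 0.20 above the other controls in tg+/+, where 28 genes were above, and 0.15 below them in tg-/- (-0.15), where 27 were below. Summed over the list, the signal ran from 10908 to 13631 in tg-/-, from 13766 to 18072 in tg+/+ and from 11937 to 16984 in the 6 other controls. The other controls overlapped both tg groups in this sum, which the brightest genes dominate. The median effect of the list was -0.01 in both the stg and the lh forebrain, and no member differed between tg and those lines in limma. In tg cerebellum 32 of the genes were measured, with a median of -0.10 and 18 below 0.

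A cAMP response element (CRE), the site of the calcium-activated factor CREB, is the classic element of rapid activity-regulated genes. Promoters are shown for Fos, Nr4a1, Dusp1 and Egr2, members of the list that were measured here and hold its core. Other measured members, such as Dusp6 and Ier5, held no core and are not shown. Each window is the 250 bases before a RefSeq transcript start (GRCm38.p6), 5′ to 3′ along the gene, and capitals mark the CRE core TGACG on either strand (CGTCA when read on the other one). In Egr2 the longest run of capitals is a CArG box, the site of serum response factor.
Fos, chr12:85473640-85473889, plus strand: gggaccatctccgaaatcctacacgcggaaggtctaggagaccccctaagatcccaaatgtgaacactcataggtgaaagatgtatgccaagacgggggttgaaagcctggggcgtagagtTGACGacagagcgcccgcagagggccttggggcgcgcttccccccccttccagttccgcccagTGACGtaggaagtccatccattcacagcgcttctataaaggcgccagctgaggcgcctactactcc
Nr4a1, chr15:101266596-101266845, plus strand: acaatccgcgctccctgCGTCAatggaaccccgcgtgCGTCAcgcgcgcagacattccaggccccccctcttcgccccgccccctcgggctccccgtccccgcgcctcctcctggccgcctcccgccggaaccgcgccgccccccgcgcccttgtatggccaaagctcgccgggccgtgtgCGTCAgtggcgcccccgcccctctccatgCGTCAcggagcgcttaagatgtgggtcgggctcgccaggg
Dusp1, chr17:26508473-26508722, minus strand: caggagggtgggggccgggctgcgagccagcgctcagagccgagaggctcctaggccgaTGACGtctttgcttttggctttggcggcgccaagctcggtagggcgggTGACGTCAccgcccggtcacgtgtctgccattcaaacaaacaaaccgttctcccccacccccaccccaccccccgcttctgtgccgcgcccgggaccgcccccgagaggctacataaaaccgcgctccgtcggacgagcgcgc
Egr2, chr10:67537619-67537868, plus strand: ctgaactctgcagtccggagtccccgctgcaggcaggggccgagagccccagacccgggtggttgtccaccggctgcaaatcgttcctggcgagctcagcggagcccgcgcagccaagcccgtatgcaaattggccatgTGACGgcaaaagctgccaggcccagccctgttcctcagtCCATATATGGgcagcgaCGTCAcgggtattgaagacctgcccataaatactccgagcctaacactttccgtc
Fos held 2 cores, Egr2 1 on each strand beside its CArG box, Nr4a1 4 on the opposite strand, and Dusp1 a lone core and a full palindromic CRE, TGACGTCA, in which 2 cores overlap. Of the 35 measured rapid genes 27 had an entry, and 18 of them (66.7%) held a core in at least 1 window, against 30.4% of the 10169 tested genes with an entry. The full CRE was in 3 of 27 (11.1%) against 2.999%, and the CArG box in 1 of 27 (3.70%) against 1.35%. Genes with several annotated starts have more windows. A match is a description of these letters and says nothing about binding in these mice.

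The slower effectors of activity had a median nearer 0. Of 28 measured, none passed, 18 lay below 0 and the median was -0.06, while 4 (14.3%, against 5.06% of all) had all tg-/- arrays lower and 1 (3.57%, against 4.64%) had all higher. The neurotrophin gene Bdnf lay at -0.02 on its brighter probe set, the synaptic scaffold Homer1 at -0.15, the neuropeptide precursors Vgf and Scg2 at 0.12 and -0.03, the pentraxin Nptx2 at -0.68, Inhba at -0.52 and the prostaglandin synthase Ptgs2 at 0.02. The largest was Gpr3, a constitutively active receptor of neurons and a gene picked after its value was seen. It read 19.7, 7.92 and 6.45 in tg-/- and 39.3, 35.8 and 50.5 in tg+/+ (-1.75, SE 0.42, adjusted p = 0.13), and passed only with array weights. In the percentage of genes with a CRE core the effectors (12 of 19, 63.2%) were close to the rapid list, with a median nearer 0.

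Genes of ion channels and transmission showed few differences. Of 27 sodium, potassium and HCN channel genes none passed and the median was -0.04. The largest was Kcnj9, a G-protein-gated inward rectifier, at 200.3, 189 and 233 in tg-/- and 552, 436 and 325 in tg+/+ (-1.04, SE 0.23, adjusted p = 0.086). A second probe set lay at -1.06 and the last at 0.36, so they disagreed. The first passed with array weights (-1.22, limma adjusted p = 0.017). None of 25 glutamate receptor and transporter genes (median 0.00), 29 release machinery genes (-0.01) or 28 genes of calcium buffering, stores and kinases (0.00) passed. Among 26 neuropeptides none passed, with Crh at 0.63 and Npy at -0.58 the largest. None of 12 catecholamine genes and none of 18 clock genes passed, the latter with a median of 0.13.

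No gene of the MHC class I list passed, though some did under other settings. The brighter H2-K1 probe set read 305, 329 and 284 in tg-/- and 65.2, 40.8 and 41.0 in tg+/+ (2.60, SE 0.60, adjusted p = 0.12), and it passed in limma with the 6 arrays alone (adjusted p = 9.9e-04) and with the block for line and order of records (0.0094). H2-D1 lay at 3.86 and 3.82 on 2 probe sets but at -2.20 on another. The first of these passed in limma with array weights (adjusted p = 0.0076), with the block (0.019) and in the 6 arrays alone (0.015). These genes are highly alike and polymorphic between strains, and x_at probe sets can read several of them, so no level of a single gene is given. On 5 of the 13 measured genes of the list (38.5%) all tg-/- arrays were higher, against 4.64% of all tested probe sets, and the stg+/+ and lh+/+ arrays of H2-K1 spread from 41.2 to 176.

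The medians were -0.02 for 15 excitatory neuron markers, -0.01 for 15 interneuron markers, 0.01 for 12 striatal markers, 0.09 for 13 astrocyte markers and -0.03 for 16 oligodendrocyte and myelin genes, and none of their members passed. Of the astrocyte markers 12 lay above 0 and 1 below, and of the oligodendrocyte and myelin genes 4 lay above and 12 below. The astrocyte list deviated by 0.16, 0.04 and 0.07 in tg-/- and by 0.07, -0.25 and 0.01 in tg+/+. Its lowest value was on tg+/+ replicate 2, the array that stood apart. Of 14 microglia markers none passed, 5 lay above 0 and the median was -0.08. All tg-/- arrays were lower on 2 of them (14.3%, against 5.06% of all tested probe sets), Aif1 at -0.75 and C1qa at -0.40, and higher on 1 (7.14%, against 4.64%). C1qa, a complement component, read 336, 352 and 370 in tg-/- and 447, 466 and 488 in tg+/+. Endothelial and pericyte markers were below 0 for 10 of 13, with a median of -0.21 and summed signals of 4083 to 4274 in tg-/- and 4499 to 4670 in tg+/+. This shift had the sign of that in the rapid list. Over the 3 replicates the marker list deviated by -0.08, -0.08 and -0.02 in tg-/- and by 0.06, 0.18 and -0.003 in tg+/+. The rapid list deviated by -0.22, -0.28 and 0.02 in tg-/- and by -0.03, 0.37 and 0.39 in tg+/+. The part of the marker shift in the result of the rapid list was not tested.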

How the data were processed

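Total RNA of forebrain and cerebellum was read on 1-colour Affymetrix arrays. Each file the authors deposited gave 1 intensity per probe set on a linear scale. The method of summary was not given in the sources used here. On every array the mean after trimming 2% at each end was 150. No detection calls were used, and array numbers limit the precision.

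Log2 of the signal plus 2.98 (the 10th percentile) was computed, without the 64 control sets. Probe sets above the 40th percentile in mean were tested (27022). limma 3.58.1 in R 4.3.3 fitted a mean per group over the 18 arrays of a tissue (all 36 for the tissue difference), with an intensity trend. It was checked on simulated data. Symbols came from the platform's probe table: 34958 probe sets had 1, 932 several and 9211 none. A list counts the brightest probe set of each gene. Named were Cacna1a, all genes that passed, a set of activity genes and the members of each list that passed or changed most.

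The arrays and lists were chosen with earlier results of these data known. Other filters, constants, normalization, weights, blocks and left-out arrays were tried.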

Additional observations from a re-analysis of the deposited data

Results flagged for a closer look

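The effect of tg-/- differed between cerebellum and forebrain, by a test of the difference itself, for Th (4.11, cerebellum minus forebrain), Tac1 (2.25) and both probe sets of F2r (-1.84 and -2.29). F2r, the thrombin receptor, was near equal in the forebrain groups on its dimmer probe set, with 97.8 ± 8.81 in tg-/- and 102 ± 40.3 in tg+/+ (SD, n = 3 each). The forebrain levels on its brighter probe set are not given here, and F2r was picked after its values were seen.

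The tg effect in forebrain differed from the mean effect of stg and lh, again by a test of the difference, for 11 named probe sets that also passed in tg forebrain. It was lower for Gabra2 (-2.001), Wdfy1 (-1.69), Hdac9 (-0.975) and Zdhhc18 (-0.953). It was higher for Tmem267 (4.29), Msi2 (2.39), Rps4l (1.85), Tm2d2 (1.68), Taf15 (1.67), Nxpe4 (1.64) and Ttc9 (1.30). Over all probe sets the count of such differences, 16, came to 2 to 12 with 1 tg array left out. This test holds the same tg-/- minus tg+/+ difference, on the same arrays, by which the 11 passed in tg forebrain. Their passing in both is thus no separate evidence.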

How the results depend on the processing

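All 38 called probe sets with a symbol kept their direction under every alternative in which they were tested. Their tg-/- and tg+/+ arrays did not overlap. Leaving out an array or changing the filter, constant, weights or trend thus could not reverse a direction. The kept direction under those alternatives is no separate evidence. Of the 22 alternatives, some concerned cerebellum arrays only, and in those the forebrain values were not refitted. Of the 38 probe sets, 13 passed under every processing alternative in which they were tested and 7 with each tg forebrain array left out. Under all of these 6 passed (Arsk, Hdac9, Nxpe4, Ptp4a2, Rps4l and Tm2d2). The forebrain count of 51 became 117 with array weights, 77 with a block for line and order of records, 27 without an intensity trend and 13 to 36 with 1 array left out; the other alternatives gave 34 to 60. In cerebellum the 155 became 390 with array weights, 287 with the block for line and records, 429 with a replicate block (the titles number the cerebellum samples, but same-numbered tg samples did not deviate together in every pair, with correlations of 0.292, 0.0404 and 0.244; tg-/- replicate 2 correlated best with another number) and 63 to 116 with 1 array left out. The tissue difference (7) became 19 with array weights and 3 to 8 with 1 array left out. The difference from stg and lh (16) became 36 with array weights, 10 without the trend, 9 without the 3 arrays with pituitary transcripts and 2 to 12 with 1 array left out. Against the other +/+ forebrains, tg-/- (37) gave 199 with array weights, 17 without those 3 arrays and 10 to 67 with 1 array left out, and tg+/+ (36) gave 19 without the trend, 17 without those 3 arrays and 14 to 26 with 1 array left out. The cause of these moves was not tested. The rapid list's median lay between -0.52 and -0.18. Fewer than 4 mice a group and unknown detection limits bound every value.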
